A study of Mus musculus with 8 samples.

Results

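Colonic mucosa from colitic mice given Kuiyangling by enema was compared with mucosa from healthy controls, gene by gene, to describe what still differed from healthy tissue on day 7. The comparison took 4 of the 8 libraries of the series, 2 Kuiyangling and 2 control, each from 1 male wild-type C57BL/6J mouse. Control mice received normal saline enemas. Kuiyangling mice received 10 g/kg Kuiyangling, a Chinese herbal preparation, by enema and drank 3% dextran sulfate sodium (DSS), which damages the colonic epithelium. The other 4 libraries, 2 from DSS mice on saline enemas (the DSS model) and 2 from DSS mice given 50 mg/kg mesalazine by enema, entered the fit and are quoted beside the results. All enemas were of 0.2 ml, and the age of the mice is not stated in the sources used here. The series has no group that received Kuiyangling without DSS, so a difference from control combines the effects of DSS and of the treatment.

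DSS colitis injures the colonic epithelium, and the injury is followed by the arrival of neutrophils, by cytokine signalling, and by a repair phase in which surviving epithelial cells change their program and the connective tissue lays down matrix. Neutrophils are drawn in by CXC chemokines that bind CXCR2 and carry the calprotectin subunits S100a8 and S100a9. Interleukin 33 is released by damaged cells and acts through the receptor ST2, the product of Il1rl1. Tuft cells are rare chemosensory cells of the epithelium, marked by Dclk1 and by the taste-pathway channel Trpm5.

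Of 17353 genes in the count table, 13381 had enough reads to be tested, and 32 of these (0.239%) were called different between Kuiyangling and control mucosa by edgeR's quasi-likelihood test at a Benjamini-Hochberg adjusted p under 0.05. Among them 25 (0.187%) were higher with Kuiyangling and 7 (0.0523%) were lower. The higher genes included the neutrophil chemokines Cxcl2 and Cxcl5, the calprotectin subunit S100a8, the pair Il33 and Il1rl1, collagens and matrix enzymes, several other enzymes and transporters, and the clock output genes Dbp and Ciart. The lower genes included the tuft cell genes Trpm5 and Dclk1, the mucosal pentraxin Mptx1 and the interferon-induced gene Ifi27l2a. The smallest change called was 3.80-fold, for Tgm2, and the median log2 change over all tested genes was -0.01. At an unadjusted p under 0.05 there were 1376 genes. Both Kuiyangling libraries lay above both controls for 25.9% of tested genes and below both for 23.2%, which is the background for the counts of non-overlapping genes given later.

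**Figure D1:**
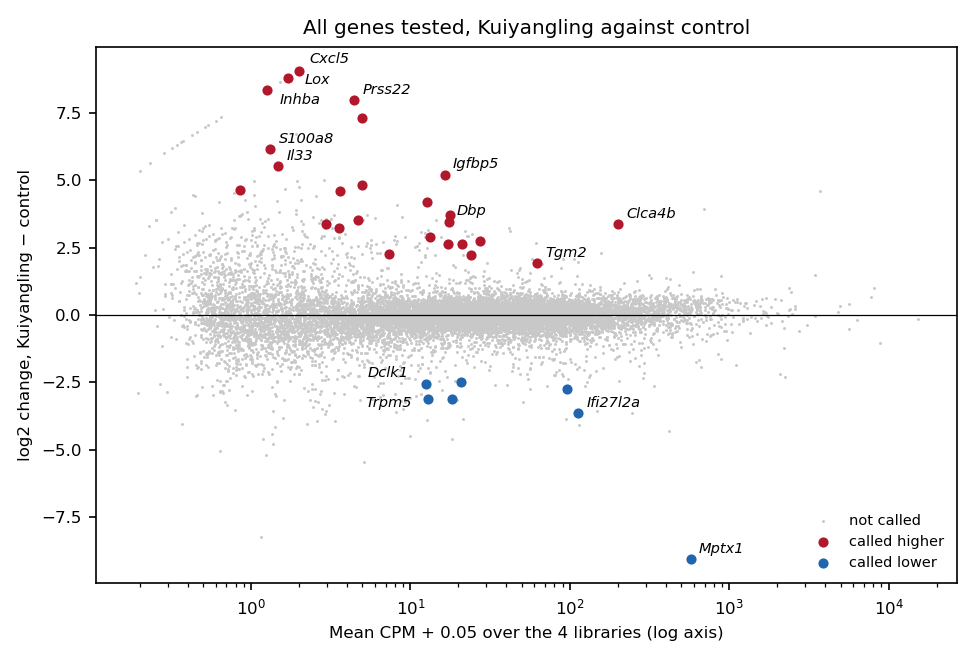
Each point is 1 of the 13381 tested genes; the horizontal axis is the mean CPM over the 2 control and 2 Kuiyangling libraries plus 0.05 (log axis) and the vertical axis the fitted log2 change, Kuiyangling minus control. The 25 genes called higher (red) and 7 called lower (blue) lie outside the band of most genes; fitted values of genes with no control reads, such as Lox, depend on the prior count.

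The calls rested on few animals. For each of the 32 genes the groups did not overlap in these same libraries. Dropping a library or rescaling could therefore hardly turn a direction, and a kept direction is no sign of stability. All 32 genes kept their direction in each of the 16 alternatives run, but leaving out control 2 left 1 gene called, Mptx1, and leaving out Kuiyangling 1 left 1, Prss22. Without control 1 the count was 148, of which 21 were among the 32, and without Kuiyangling 2 it was 13, of which 11 were. Leaving out a library of the other groups, which serve only to estimate the spread, gave 16 and 17 calls when DSS model 1 or 2 was dropped, and 65 and 86 when mesalazine 1 or 2 was dropped. DESeq2 called 341 genes, among them all 32.

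Library totals ran from 15560946 to 17843715 reads counted to genes, with 15217 to 15689 genes detected. Control 2 stood apart from most libraries, with a mean Spearman correlation to the others of 0.945, as did mesalazine 1 at 0.940, against 0.963 to 0.974 for the other libraries. Control 2 also held more RNA of MHC class II and B cell marker genes than control 1, with Cd74 at 1104 against 53.8 CPM (counts per 1e6 reads). Summed levels in controls 1 and 2 differed less. They were 6671 and 14048 CPM for the MHC class II and antigen presentation list. For the B and plasma cell markers they were 91.5 and 136 CPM. Hoxb13, a gene of the distal colon, was at 175 CPM in control 2 against 19.9 in control 1, and 5.88 and 23.2 in the Kuiyangling libraries. Cdx2, which marks intestinal epithelium, was at 420 and 390 CPM in the controls and 472 and 394 CPM in the Kuiyangling libraries. A gene's log2 level relative to its own mean over the 8 libraries was correlated with its length (Spearman's rho, across genes). This correlation was 0.444 and 0.267 in the controls and -0.0195 and 0.385 in the Kuiyangling libraries. When a curve on gene length was removed from each library, 28 of the 32 genes were still called. In bulk tissue, fewer cells of a type and less RNA per cell cannot be told apart.

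**Figure D2:**
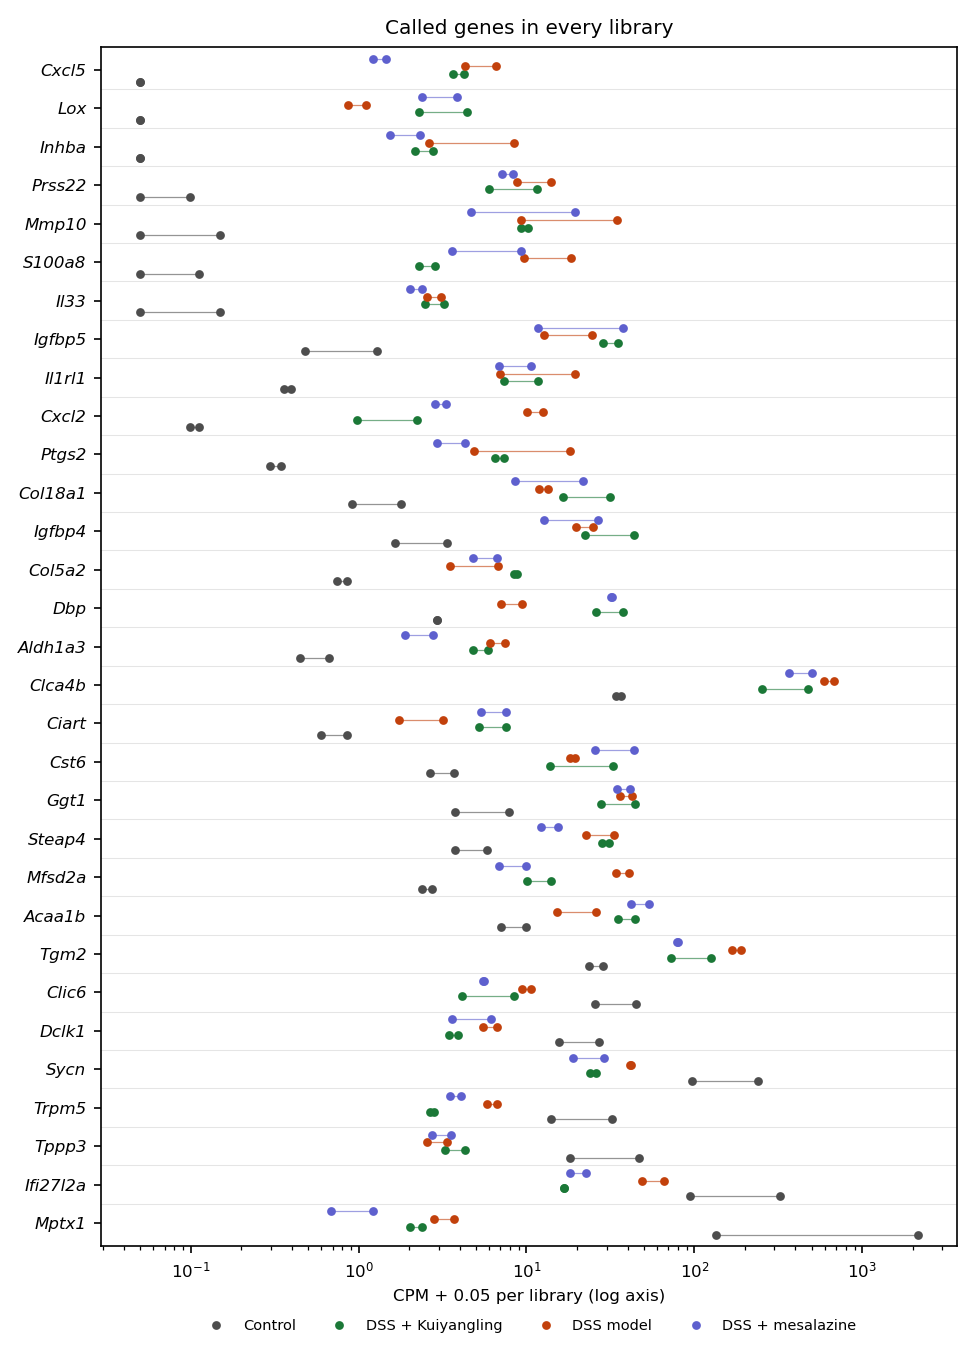
Level of the called genes that the text names, in every library, as CPM plus 0.05 on a log axis, with a line joining the 2 animals of a group. For each gene the 2 Kuiyangling libraries lie on 1 side of the 2 control libraries, and the DSS model and mesalazine libraries are shown for comparison.

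Chemokines that attract neutrophils were higher in Kuiyangling-treated mucosa than in healthy mucosa. Cxcl5 had no read in either control and was at 4.21 and 3.58 CPM in the Kuiyangling libraries, at least 46.9-fold higher against a floor of 3 counts over the control group (adjusted p = 0.0158). Cxcl2 was at 0.0495 and 0.0617 CPM in the controls, 2 reads in all, and at 2.17 and 0.935 CPM with Kuiyangling. Neither gene's groups overlapped. The ratio for Cxcl2 was 27.2, with an exact binomial 95% interval of 7.18 to 231 that covers counting error only (adjusted p = 0.0429). Its fitted log2 change of 4.63 was 3.89 without Kuiyangling 1, where it was not called (adjusted p = 0.237). In the DSS model Cxcl2 was at 10.1 and 12.5 CPM, above both Kuiyangling libraries. The direct difference, Kuiyangling minus DSS model, was -2.87 log2 units, with a 95% interval for that gene alone of -3.93 to -1.81, and it did not pass the adjustment over all genes (adjusted p = 0.820).

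The promoter of Cxcl2 is shown because NF-kB sites upstream of this gene are a textbook route from cytokine signals to neutrophil recruitment. The 250 bases before its start, at chr5:90903649-90903898 on the plus strand of GRCm38.p6 (RefSeq), hold 2 matches to the NF-kB letters (GGG, 2 bases of any kind, then TTTCC), printed in capitals, which begin 97 and 78 bases before the start.
Cxcl2: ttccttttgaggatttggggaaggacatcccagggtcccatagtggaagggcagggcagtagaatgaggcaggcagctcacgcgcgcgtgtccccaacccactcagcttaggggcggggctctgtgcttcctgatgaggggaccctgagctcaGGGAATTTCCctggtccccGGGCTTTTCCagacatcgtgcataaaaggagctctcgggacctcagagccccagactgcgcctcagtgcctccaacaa
This motif, searched on both strands, was found in 1.41% of 32841 RefSeq promoter windows of that length. Promoter sequence was matched for 21 of the 32 called genes, and 2 of these, Cxcl2 and Steap4, held it. A match describes letters, not binding.

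Of 25 chemokine genes tested, these 2 were called higher and none lower, and 11 lay above both controls. The median log2 change of the chemokine list was 0.40. It was -0.19 without control 1 and 1.35 without control 2, so its sign depended on a single control. Cxcl1, another CXCR2 ligand, was at 0.198 and 0.555 CPM in the controls and 2.10 and 1.40 CPM with Kuiyangling, and did not pass the test (log2 change 2.23, SE 0.70, adjusted p = 0.273). The interferon-induced chemokine Cxcl10 overlapped, at 1.98 and 27.4 CPM in controls and 2.29 and 2.75 CPM with Kuiyangling.

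S100a8 was the 1 called gene among 14 neutrophil markers tested. It had 1 read in the controls, at 0 and 0.0617 CPM, and was at 2.79 and 2.23 CPM with Kuiyangling, a ratio of 90.4 (95% counting interval 15.8 to 3612, adjusted p = 0.0429). Its partner S100a9 was at 0 CPM in both controls and at 3.65 and 2.23 CPM with Kuiyangling, at least 34.9-fold higher, but was not called (adjusted p = 0.0567). Both genes were more abundant in the DSS model, S100a8 at 9.62 and 18.4 CPM and S100a9 at 10.9 and 21.0 CPM. The direct differences, Kuiyangling minus DSS model, were -2.48 for S100a8 and -2.44 for S100a9, with adjusted p of 0.996 for both.

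Of the neutrophil markers, 10 of the 14 tested lay above both controls and 1 below, and the median log2 change was 2.60, or 2.28 with the 3 markers unread in controls set at their bounds. The summed level of the list was 203 and 317 CPM in the controls and 270 and 259 CPM with Kuiyangling, and most of it came from Cd177 and Ly6g. Cxcr2, the receptor for these chemokines, had no read in any control or Kuiyangling library and was at 0.566 and 1.06 CPM in the DSS model. Csf3r, the receptor for the neutrophil growth factor G-CSF, was at 0.149 and 0.370 CPM in the controls and 0.619 and 0.260 CPM with Kuiyangling, and the groups overlapped. Neutrophil extracellular traps are webs of chromatin and granule proteins released by neutrophils. Of 14 genes of trap components tested, S100a8 was again the 1 called, and the median was 0.48. Padi4, the enzyme that citrullinates histones in trap formation, had 1 read in the controls and none with Kuiyangling, and Elane, neutrophil elastase, likewise had 1 and none, both too low to test.

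Further mediators rose. Il33, the alarmin cytokine, was at 0.0991 and 0 CPM in the controls, 2 reads in all, and at 3.16 and 2.44 CPM with Kuiyangling, a ratio of 50.4 (95% counting interval 13.6 to 422, adjusted p = 0.0313). Il1rl1, its receptor, rose from 0.347 and 0.308 CPM to 11.6 and 7.32 CPM (log2 change 4.82, SE 0.64, adjusted p = 0.0292). Ligand and receptor were thus both above the controls in both treated animals. Ptgs2, the inducible cyclooxygenase of prostaglandin synthesis, rose from 0.297 and 0.247 CPM to 7.30 and 6.44 CPM (log2 change 4.61, SE 0.70, adjusted p = 0.0429). Inhba, which encodes the subunit of activin A, had no control read and stood at 2.72 and 2.13 CPM, at least 29.1-fold higher (adjusted p = 0.0469).

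These were the 4 called of 19 tested cytokines and mediators; 14 of the 19 lay above both controls and the median log2 change was 1.45. The lowest value on leaving out a library was 1.27 and the highest 2.51, the latter without control 2. Il1b, interleukin 1 beta, was at 0.595 and 1.17 CPM in the controls and 3.34 and 5.71 CPM with Kuiyangling, not called (log2 change 2.37, SE 0.58, adjusted p = 0.143). Tnf was at 3.96 and 4.62 CPM in the controls and 4.27 and 3.37 CPM with Kuiyangling (log2 change -0.17, SE 0.37), and the groups overlapped. Il6 was at 0 and 0.123 CPM in the controls and 0.309 and 0.571 CPM with Kuiyangling, 2 reads against 16, and was not called (adjusted p = 0.425). Nos2, the inducible nitric oxide synthase, was at 4.86 and 21.6 CPM in the controls and 45.6 and 26.3 CPM with Kuiyangling, not called either.

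Matrix and remodelling genes stood well above healthy levels. Lox, the enzyme that cross-links collagen and elastin, had no control read and was at 4.39 and 2.23 CPM with Kuiyangling, at least 39.1-fold higher (adjusted p = 0.0292). Col5a2, a chain of a fibril-forming collagen, rose from 0.694 and 0.802 CPM to 8.79 and 8.36 CPM (log2 change 3.51, SE 0.47, adjusted p = 0.0292). Mmp10, a stromelysin that degrades matrix, had 2 control reads, at 0.0991 and 0 CPM, and was at 10.2 and 9.29 CPM with Kuiyangling. Its ratio was 177 (95% counting interval 48.6 to 1466, adjusted p = 0.0458). For all 3 genes both treated animals were above both controls. In the DSS model Lox was at 0.818 and 1.06 CPM, and the direct difference, Kuiyangling minus DSS model, was 1.81 (95% interval for that gene alone 0.51 to 3.10, adjusted p = 0.996).

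Called genes outside the matrix list also concern matrix or growth factors bound in it. Col18a1, a basement membrane collagen, rose from 1.73 and 0.863 CPM to 31.2 and 16.5 CPM (log2 change 4.17, SE 0.57, adjusted p = 0.0292). Igfbp5 and Igfbp4 bind insulin-like growth factors outside cells. Igfbp5 rose from 1.24 and 0.432 CPM to 35.2 and 28.6 CPM (log2 change 5.21, SE 0.69, adjusted p = 0.0292). Igfbp4 rose from 3.32 and 1.60 CPM to 43.7 and 22.2 CPM (log2 change 3.72, SE 0.52, adjusted p = 0.0313). Without control 1 the log2 changes were 4.76 for Col18a1, 6.17 for Igfbp5 and 4.34 for Igfbp4, all still called, and none of the 3 was called without control 2. Without Kuiyangling 1 the log2 changes were 3.62 for Col18a1, 5.03 for Igfbp5 and 3.14 for Igfbp4, and none of the 3 was called.

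Of 36 matrix and remodelling genes tested, 3 were called higher and none lower, while 31 lay above both controls and 2 below. Their median log2 change was 2.76, against -0.01 over all genes, and ran from 2.39 to 3.46 on leaving out a library. The main fibrillar collagens missed the threshold narrowly. Col3a1 was at 13.7 and 3.64 CPM in the controls and 83.9 and 67.8 CPM with Kuiyangling (log2 change 3.12, SE 0.54, adjusted p = 0.0567). Col1a1 was at 4.01 and 1.23 CPM in the controls and 23.5 and 20.6 CPM with Kuiyangling, and Col1a2 at 7.73 and 2.84 CPM and 44.4 and 35.9 CPM (adjusted p = 0.0567 for both). Each of these 3 collagens, chosen after their values were seen, was higher in both treated animals than in any DSS model library. There Col3a1 was at 25.0 and 39.1 CPM. No gene was called between Kuiyangling and the DSS model by edgeR's quasi-likelihood test (smallest adjusted p 0.820). The share of all genes placed like these collagens was not computed. Col8a1, a short-chain collagen, had an estimate of the opposite sign, at 22.7 and 12.5 CPM in the controls and 1.98 and 2.23 CPM with Kuiyangling (log2 change -3.06, SE 0.60, adjusted p = 0.0739). Mmp13, a collagenase, was at 0.991 and 0.802 CPM in the controls and 17.9 and 12.9 CPM with Kuiyangling (adjusted p = 0.0567). The 2 metalloproteinases named here did not share the collagens' order. In the DSS model Mmp13 was at 20.4 and 84.5 CPM, above both treated animals, and Mmp10 at 9.18 and 34.4 CPM, overlapping them. Their direct differences, Kuiyangling minus DSS model, were -1.76 for Mmp13 and -1.16 for Mmp10 (adjusted p = 0.996 for both).

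Set beside the same controls, the median of the matrix list was 2.04 in the DSS model and 2.14 with mesalazine. Markers of vessels and blood were higher as well, without a call. All 12 endothelial genes tested had higher estimates, 10 lay above both controls, none was called, and their median was 2.48; their summed level was 10.1 and 9.8 CPM in the controls and 43.1 and 30.8 CPM with Kuiyangling. The endothelial cadherin Cdh5 was at 0.149 and 0 CPM in the controls and 1.79 and 2.02 CPM with Kuiyangling (adjusted p = 0.118). Of 8 erythroid and skeletal muscle genes tested, 6 lay above both controls, with a median of 3.00, and haemoglobin Hba-a1 was at 1.83 and 0.740 CPM against 20.5 and 12.0 CPM with Kuiyangling (adjusted p = 0.0731). Smooth muscle genes had a median of -0.40 over 12 tested genes, or 0.73 without control 1, with summed levels of 236 and 150 CPM in the controls and 190 and 180 CPM with Kuiyangling. The part of blood, vessel and muscle content in the matrix result was not tested.

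**Figure D3:**
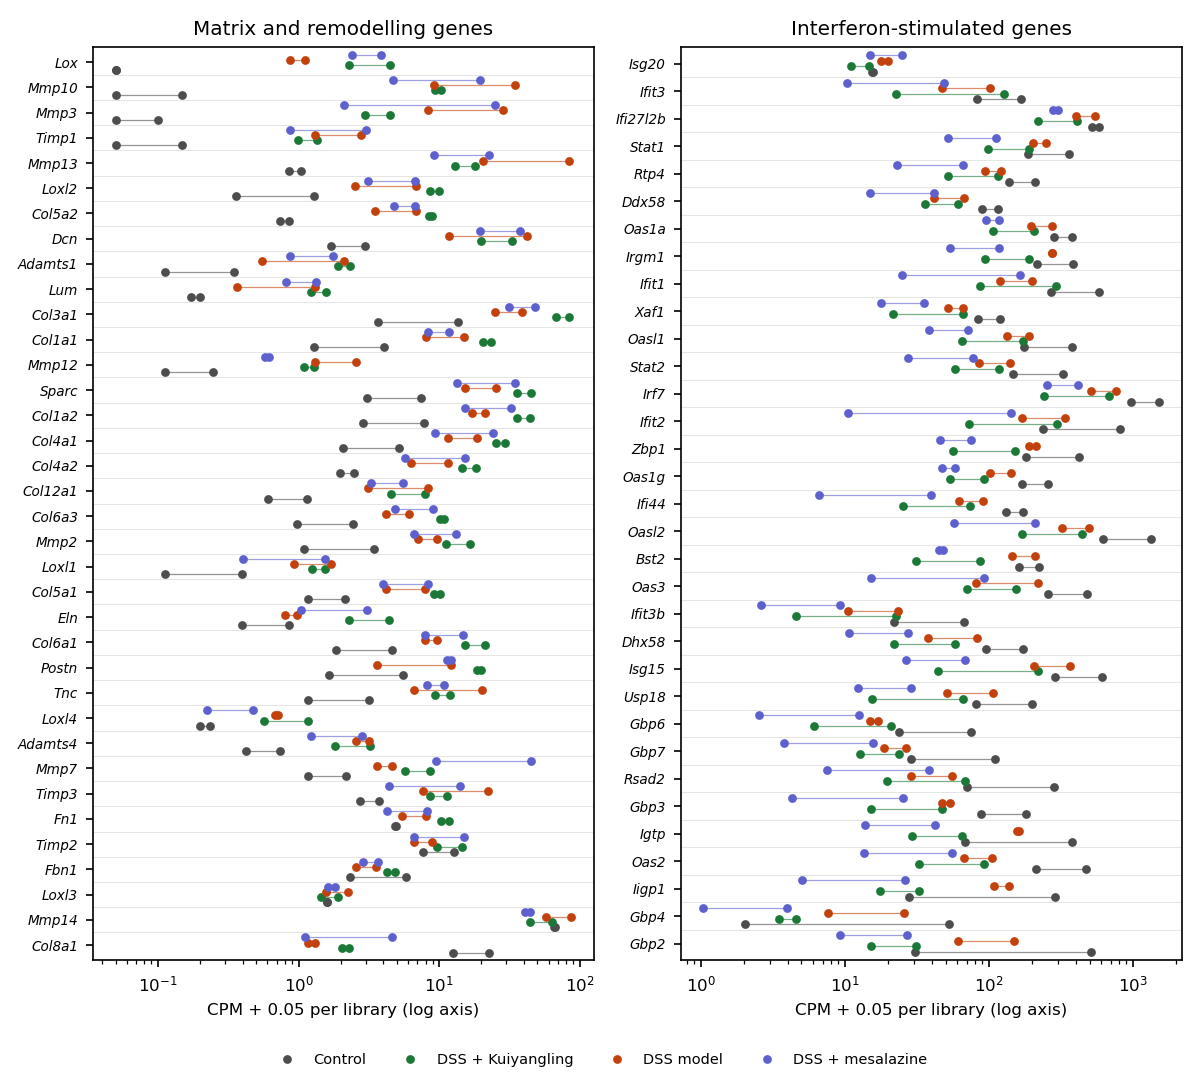
Levels of the tested matrix and remodelling genes (left) and interferon-stimulated genes (right) in every library, as CPM plus 0.05 on log axes, with a line joining the 2 animals of a group. Kuiyangling libraries (green) lie above both controls (grey) for 31 of 36 matrix genes and below both for 25 of 33 interferon-stimulated genes.

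The other genes called higher, outside the clock list, included Prss22, Clca4b and Tgm2. Prss22, a serine protease of epithelia, had 1 control read, at 0.0495 and 0 CPM, and was at 11.5 and 5.97 CPM with Kuiyangling, a ratio of 308 (95% counting interval 54.9 to 12218, adjusted p = 0.00742). Clca4b, a member of the CLCA family of chloride channel accessory proteins, rose from 34.2 and 36.5 CPM to 472 and 254 CPM (log2 change 3.36, SE 0.37, adjusted p = 0.0158). Tgm2, the tissue transglutaminase that cross-links proteins, rose from 28.3 and 23.6 CPM to 125 and 72.2 CPM (log2 change 1.93, SE 0.31, adjusted p = 0.0479). In none of the 3 did the groups overlap.

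Prss22 and Tgm2 were the 2 called of 22 tested genes of the regenerating epithelium, of which 12 lay above both controls and 2 below, with a median of 0.54. Ly6a, the Sca-1 gene that is used as a mark of regenerating colonic epithelium, overlapped, at 823 and 1457 CPM in the controls and 915 and 595 CPM with Kuiyangling. Aldh1a3, which makes retinoic acid, rose from 0.396 and 0.617 CPM to 5.82 and 4.72 CPM (log2 change 3.38, SE 0.48, adjusted p = 0.0313). Cst6, a cystatin that inhibits cysteine proteases, rose from 2.63 and 3.64 CPM to 32.6 and 13.8 CPM (log2 change 2.89, SE 0.46, adjusted p = 0.0443), and had a log2 change of 2.11 without Kuiyangling 1, not called (adjusted p = 0.255). Steap4, a metalloreductase that reduces iron and copper, rose from 5.80 and 3.70 CPM to 31.1 and 28.1 CPM (log2 change 2.63, SE 0.34, adjusted p = 0.0292).

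Ggt1, Mfsd2a and Acaa1b rose as well. Ggt1, which splits glutathione outside the cell, rose from 7.78 and 3.70 CPM to 44.4 and 27.9 CPM (log2 change 2.65, SE 0.39, adjusted p = 0.0366). On leaving out a compared library its log2 change ran from 2.215, without control 2, to 3.27, without control 1. Mfsd2a, a transporter of lysophosphatidylcholine, rose from 2.68 and 2.34 CPM to 10.1 and 13.9 CPM (log2 change 2.25, SE 0.33, adjusted p = 0.0366). In the DSS model Mfsd2a was at 40.6 and 33.9 CPM, above both treated animals. Acaa1b, a peroxisomal thiolase of fatty acid oxidation, rose from 9.91 and 7.03 CPM to 44.4 and 34.9 CPM (log2 change 2.22, SE 0.35, adjusted p = 0.0429).

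Of 36 colonocyte absorption and transport genes tested, Clca4b alone was called, 10 lay above both controls, 3 lay below, and the median was -0.15, or 0.22 without control 2. Single members ran from -3.85 to 3.36, and 10 had an unadjusted p under 0.05. Car1, the carbonic anhydrase of colonocytes, was at 7576 and 3280 CPM in the controls and 12515 and 9178 CPM with Kuiyangling (SE of the log2 change 0.45, adjusted p = 0.493). Slc26a3, the chloride and bicarbonate exchanger, was at 501 and 1038 CPM in the controls and 326 and 629 CPM with Kuiyangling, and the groups overlapped. Acaa1b was the 1 called of 24 genes of PPAR targets and fatty acid oxidation, whose median was -0.06. Values of Clca4b, Acaa1b, Hba-a1 and Ifi27l2a are uncertain where reads are shared with their close relatives Clca4a, Acaa1a, Hba-a2 and Ifi27l2b, and how the authors' counting treated such reads is not given in the sources used here.

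The clock output genes Dbp and Ciart were both higher than in healthy mucosa. Dbp, a transcription factor whose rhythm is driven directly by the clock, had the smallest adjusted p with Prss22. It rose from 2.87 and 2.90 CPM to 37.5 and 26.1 CPM (log2 change 3.46, SE 0.32, adjusted p = 0.00742). Ciart, a repressor of the CLOCK and BMAL1 pair, rose from 0.545 and 0.802 CPM to 7.55 and 5.14 CPM (log2 change 3.23, SE 0.51, adjusted p = 0.0429). Both genes were lower in the DSS model, Dbp at 6.98 and 9.41 CPM and Ciart at 1.70 and 3.12 CPM, and reached with mesalazine 32.3 and 31.9 CPM for Dbp and 7.50 and 5.31 CPM for Ciart. The direct difference of Dbp, Kuiyangling minus DSS model, was 1.95 log2 units (95% interval for that gene alone 1.29 to 2.62, adjusted p = 0.820).

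Promoters of 2 clock genes are shown because CLOCK and BMAL1 bind the E-box CACGTG. Each run is the 250 bases before a RefSeq start in GRCm38.p6, with E-boxes in capitals: Ciart at chr3:95882229-95882478 on the minus strand, with matches that begin 116, 58 and 44 bases before the start, and Tef at chr15:81811164-81811413 on the plus strand, with 1 that begins 138 bases before it.
Ciart: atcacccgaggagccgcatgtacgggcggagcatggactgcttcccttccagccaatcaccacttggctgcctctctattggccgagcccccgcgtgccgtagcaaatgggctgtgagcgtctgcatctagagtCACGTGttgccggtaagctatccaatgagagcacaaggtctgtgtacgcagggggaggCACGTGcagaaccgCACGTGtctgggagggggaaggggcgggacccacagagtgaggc
Tef: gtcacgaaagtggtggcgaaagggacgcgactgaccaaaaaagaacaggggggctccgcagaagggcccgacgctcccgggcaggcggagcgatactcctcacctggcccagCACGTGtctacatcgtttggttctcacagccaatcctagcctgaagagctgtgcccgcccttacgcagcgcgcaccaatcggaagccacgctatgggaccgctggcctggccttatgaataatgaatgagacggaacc
The E-box reads the same on both strands and was found in 6.02% of the 32841 promoter windows. Of 21 called genes with a window, Ciart alone held it. Of 16 clock genes with a window, 4 did: Ciart, Cry1, Per1 and Tef.

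Of 21 clock genes tested, Dbp and Ciart were called, 8 lay above both controls, 5 below, and the list median was -0.08, or 0.26 without control 2. Further members, none of them called, are given by value. Tef, a relative of Dbp, was at 25.7 and 31.1 CPM in the controls and 88.0 and 79.4 CPM with Kuiyangling (log2 change 1.56, SE 0.29, adjusted p = 0.0601). Nr1d1, the repressor REV-ERB alpha, was at 11.9 and 12.9 CPM in the controls and 53.8 and 41.5 CPM with Kuiyangling (log2 change 1.94, SE 0.38, adjusted p = 0.0731). Arntl, which encodes BMAL1, was at 48.7 and 88.1 CPM in the controls and 17.8 and 21.3 CPM with Kuiyangling (log2 change -1.80, SE 0.34, adjusted p = 0.0698). Per2 overlapped, at 14.0 and 37.1 CPM in the controls and 22.4 and 21.8 CPM with Kuiyangling. The hour of tissue collection is not stated in the sources used here.

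**Figure D4:**
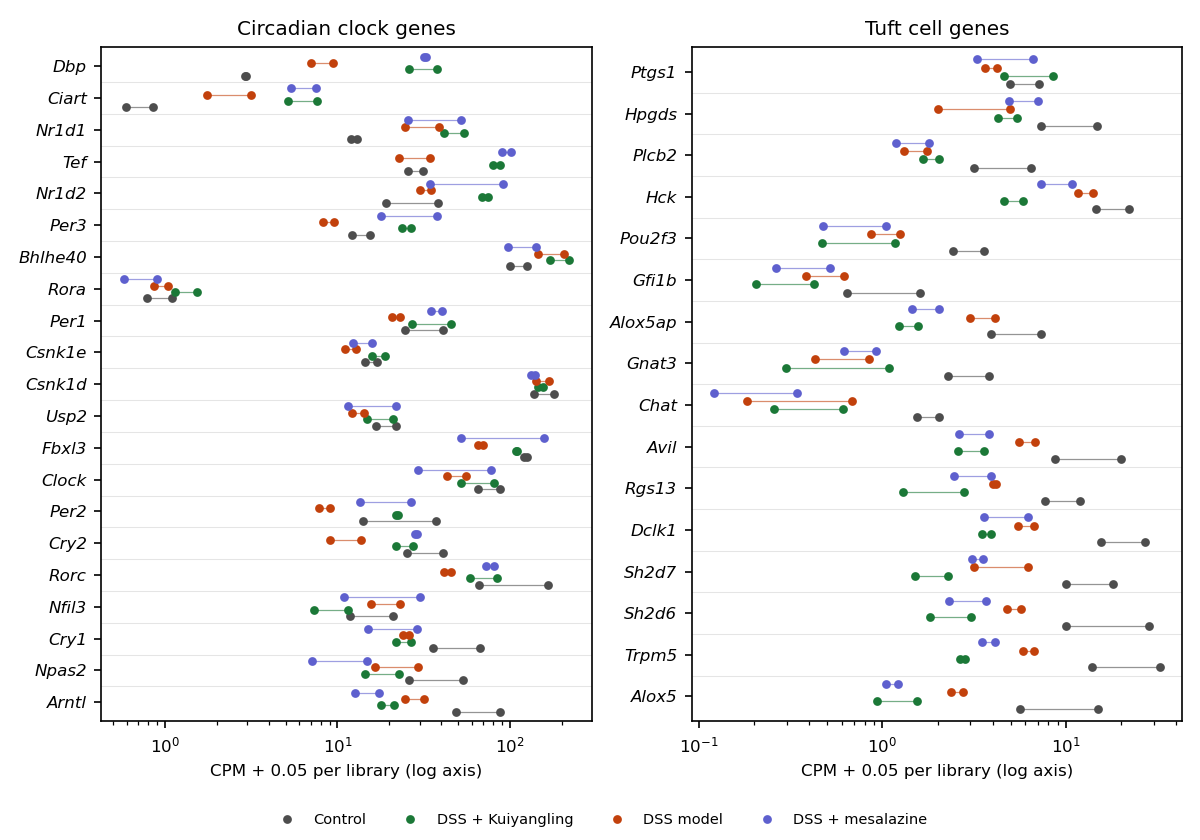
Levels of the tested circadian clock genes (left) and tuft cell genes (right) in every library, as CPM plus 0.05 on log axes, with a line joining the 2 animals of a group. Dbp and Ciart lie above both controls with Kuiyangling and Arntl below; 15 of 16 tuft cell genes lie below both controls.

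Tuft cell genes were lower than in healthy mucosa. Trpm5 fell from 13.9 and 32.4 CPM to 2.60 and 2.75 CPM (log2 change -3.11, SE 0.44, adjusted p = 0.0313). Dclk1, a kinase used as the main tuft cell marker, fell from 15.5 and 26.9 CPM to 3.84 and 3.43 CPM (log2 change -2.54, SE 0.41, adjusted p = 0.0443). The treated libraries lay close together and far below both controls. Without control 2 the log2 change of Trpm5 was -2.37 and that of Dclk1 -2.09, and neither gene was called. Without Kuiyangling 1 they were -3.09 and -2.65, and without Kuiyangling 2 -3.15 and -2.46. Neither gene was called in these cases.

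These were the 2 called of 16 tuft cell genes tested, none was called higher, and 15 of the 16 lay below both controls. The median log2 change was -2.18 and ran from -2.69 to -1.70 on leaving out a library. Sh2d7, an adaptor gene of the tuft cell list, was at 9.91 and 18.0 CPM in the controls and 2.23 and 1.45 CPM with Kuiyangling (log2 change -2.92, SE 0.49, adjusted p = 0.0503). Alox5, the lipoxygenase of leukotriene synthesis, was at 5.55 and 14.9 CPM and 1.49 and 0.883 CPM (adjusted p = 0.0579). Pou2f3, the transcription factor that specifies tuft cells, was at 2.38 and 3.51 CPM in the controls and 1.11 and 0.415 CPM with Kuiyangling (log2 change -1.95, SE 0.65, adjusted p = 0.303). Ptgs1 was the member without a decrease, at 4.91 and 7.09 CPM in the controls and 8.48 and 4.52 CPM with Kuiyangling. Against the same controls the list median was -1.63 in the DSS model and -2.03 with mesalazine. The direct difference of Trpm5 between Kuiyangling and the DSS model was -1.21 (95% interval for that gene alone -2.16 to -0.27, adjusted p = 0.996).

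Mptx1, a mucosal pentraxin of the colonic epithelium, showed the steepest fall of the called genes. It was at 134 and 2151 CPM in the controls and at 2.35 and 1.97 CPM with Kuiyangling (log2 change -9.04, SE 1.22, adjusted p = 0.0292). The controls differed widely from each other, yet both were far above the treated libraries. On leaving out a compared library, the log2 change of Mptx1 ran from -9.97, without control 1, to -5.95, without control 2. It was -9.20 without Kuiyangling 1 and -8.92 without Kuiyangling 2, and Mptx1 was not called in either case. The DSS model, at 2.77 and 3.65 CPM, and mesalazine, at 0.637 and 1.17 CPM, were low as well. Sycn, syncollin of secretory granules, fell from 96.4 and 239 CPM to 23.9 and 26.0 CPM (log2 change -2.75, SE 0.42, adjusted p = 0.0429). Tppp3, a tubulin-binding protein, fell from 18.1 and 46.6 CPM to 4.27 and 3.22 CPM (log2 change -3.11, SE 0.47, adjusted p = 0.0417). Without control 2 the log2 changes were -1.95 for Sycn and -2.28 for Tppp3, and neither was called. Without Kuiyangling 1 they were -2.71 and -3.35, and without Kuiyangling 2 -2.81 and -2.92. Neither gene was called in these cases. Clic6, an intracellular chloride channel family member, fell from 25.7 and 44.6 CPM to 4.09 and 8.41 CPM (log2 change -2.48, SE 0.41, adjusted p = 0.0480). It was not called without control 2 (log2 change -2.03, adjusted p = 0.341), without Kuiyangling 1 (-2.08, adjusted p = 0.303) or without Kuiyangling 2 (-3.10, adjusted p = 0.0820).

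Mptx1 was the 1 called member of 22 epithelial antimicrobial and acute-phase genes tested, whose median was 0.26 and ran from -0.25 to 0.53 on leaving out a library. Its fellow members Reg3g and Reg3b, antibacterial lectins, had high but variable values. Reg3g was at 114 and 57.4 CPM in the controls and 1822 and 795 CPM with Kuiyangling (log2 change 3.93, SE 0.85, adjusted p = 0.0961), and Reg3b at 428 and 162 CPM and 10218 and 4073 CPM (adjusted p = 0.107). Lcn2, the siderophore-binding lipocalin, was at 0.644 and 0.247 CPM in the controls and 9.10 and 3.12 CPM with Kuiyangling (adjusted p = 0.279). Of 21 goblet cell genes none was called, 12 lay below both controls, 1 lay above, and the median was -0.61. Muc2, the main secreted mucin, was at 12855 and 10998 CPM in the controls and 6460 and 5050 CPM with Kuiyangling (log2 change -1.05, SE 0.45, adjusted p = 0.459). Clca1, a protease of the mucus layer, was at 1720 and 5697 CPM in the controls and 762 and 739 CPM with Kuiyangling (log2 change -2.31, SE 0.50, adjusted p = 0.0961).

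Interferon-stimulated genes had lower levels than in healthy mucosa, with 1 relative of the list called. Ifi27l2a, induced by type I interferon, fell from 93.9 and 324 CPM to 16.6 and 16.7 CPM (log2 change -3.65, SE 0.52, adjusted p = 0.0313). The DSS model lay between, at 48.8 and 65.7 CPM. Without control 1 the log2 change was -4.29, and without control 2 it was -2.50 and the gene was not called. It was -3.67 without Kuiyangling 1 and -3.65 without Kuiyangling 2, and the gene was not called in either case. All 33 genes of the interferon list had lower estimates and 25 lay below both controls, but none was called, and 26 had an unadjusted p under 0.05. The list median was -1.62. It was -0.75 without control 2, and -0.83 in the DSS model and -2.72 with mesalazine against the same controls.

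Levels within the treated pair were uneven for this list. Its summed level was 6043 and 12181 CPM in the controls and 4703 and 1828 CPM with Kuiyangling. Irf7, the transcription factor that amplifies interferon responses, was at 978 and 1524 CPM in the controls and 683 and 240 CPM with Kuiyangling (log2 change -1.44, SE 0.50, adjusted p = 0.332). Ifit1 overlapped, at 270 and 583 CPM in the controls and 293 and 86.5 CPM with Kuiyangling. The member with the smallest p was Oas1g, an oligoadenylate synthetase of antiviral defence, at 171 and 257 CPM in the controls and 92.9 and 53.7 CPM with Kuiyangling (log2 change -1.54, SE 0.35, adjusted p = 0.120). Its promoter is shown because the list's members are defined by response to interferon, through elements with the letters GAAA, 2 bases of any kind, then GAAA. The 250 bases before the start, at chr5:120887614-120887863 on the minus strand of GRCm38.p6 (RefSeq), hold 2 overlapping matches, in capitals, which begin 18 and 12 bases before the start.
Oas1g: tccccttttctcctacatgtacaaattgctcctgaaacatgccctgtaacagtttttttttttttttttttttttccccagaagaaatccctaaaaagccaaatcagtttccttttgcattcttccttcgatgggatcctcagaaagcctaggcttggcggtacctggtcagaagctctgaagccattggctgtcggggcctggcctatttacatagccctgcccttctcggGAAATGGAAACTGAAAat
On either strand, this motif was present in 2.98% of all promoter windows, in 15 of the 23 interferon-stimulated genes with a window, and in none of the 21 called genes.

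Immune cell lists that were low with Kuiyangling depended on control 2. Of 18 MHC class II and antigen presentation genes none was called, and the median was -1.59, but 0.16 without control 2. Cd74, the invariant chain, was at 53.8 and 1104 CPM in the controls and 96.2 and 92.1 CPM with Kuiyangling. Of 11 B and plasma cell markers none was called, and the median of -2.69 became 0.65 without control 2. Cd79a, a B cell receptor subunit, was at 0.0991 and 9.31 CPM in the controls and 0.495 and 0.727 CPM with Kuiyangling. T and NK cell markers, with 17 tested and none called, had a median of -0.62, or 0.82 without control 2. Eosinophil and mast cell markers, 6 tested and none called, had a median of -1.15, or 0.47 without control 2. In these 4 lists the sign of the median thus turned when 1 animal was left out. Monocyte and macrophage markers, 19 tested and none called, had a median of 0.51, and Arg1, an arginase of tissue macrophages, was at 0.743 and 0.123 CPM in the controls and 7.24 and 2.39 CPM with Kuiyangling (adjusted p = 0.140).

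Lists for the remaining epithelial and metabolic programs held no called gene. Among 18 stem cell and Wnt target genes the median was -0.14, and Lgr5, the stem cell receptor, was at 5.30 and 3.08 CPM in the controls and 4.58 and 6.75 CPM with Kuiyangling. The 28 proliferation and DNA replication genes also had a median of -0.14, the 20 enteroendocrine cell genes 0.17, and the 20 junction genes -0.21. Each of these 4 medians changed sign in at least 1 of the 16 alternatives. Cldn8, a claudin that seals the distal colon, was at 62.4 and 72.8 CPM in the controls and 38.2 and 35.4 CPM with Kuiyangling (log2 change -0.88, SE 0.29, adjusted p = 0.303). Cholesterol and bile acid genes, 25 tested, had a median of 0.71, with 14 above both controls and none below. Xenobiotic metabolism genes, 38 tested, had a median of 0.30, and Cyp2d26, a cytochrome P450, was at 48.2 and 33.2 CPM in the controls and 198 and 147 CPM with Kuiyangling (log2 change 2.08, SE 0.35, adjusted p = 0.0503). Hypoxia and glycolysis genes (22 tested, median 0.37) and oxidative phosphorylation genes (24 tested, median 0.34) had 13 and 16 members above both controls. After the curve on gene length was removed, these medians were 0.38 and 0.10.

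Small or near-zero medians were found for 20 unfolded protein response genes (-0.04), 25 glucocorticoid and fasting response genes (-0.11), 21 immediate early genes (-0.18), 14 posterior Hox and colon position genes (0.03) and 7 adipocyte genes (-0.01). The 7 squamous epithelium genes tested had a median of 0.41 and the 4 enteric neuron and glia genes -0.36. All of these but the last changed sign in at least 1 alternative. Among 99 genes picked by ribosomal protein symbols, 84 lay above both controls, none was called and the median was 0.54. That median was 0.19 after the curve on gene length was removed. The symbol rule also takes in kinase genes such as Rps6ka2, the lowest member at a log2 change of -1.59.

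**Figure D5:**
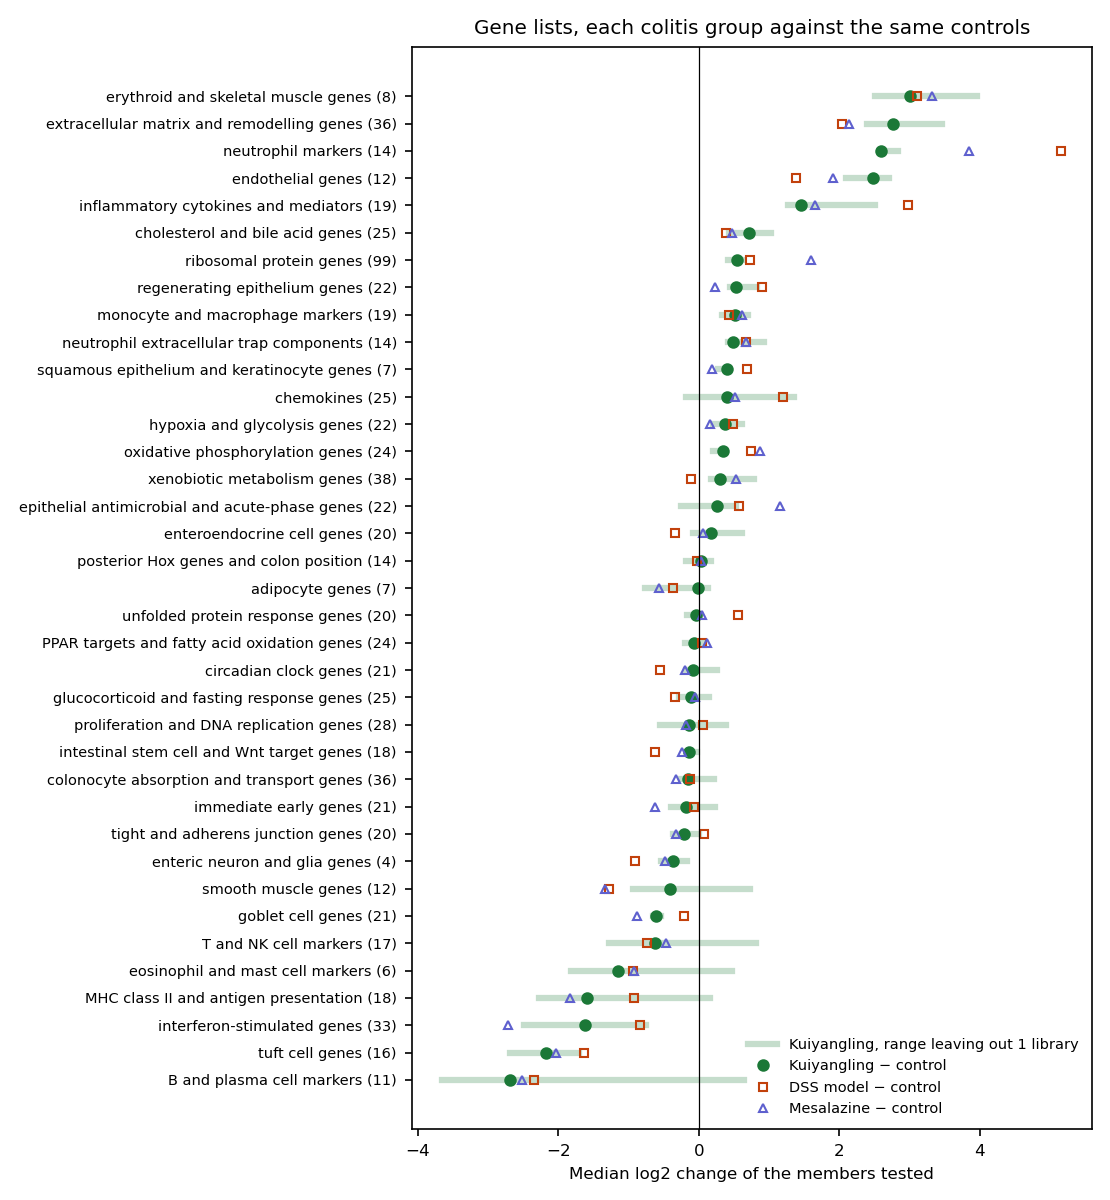
Median log2 change of the tested members of each gene list (number tested in parentheses) for Kuiyangling, the DSS model and mesalazine, each against the same 2 controls. The pale bar is the range of the Kuiyangling median on leaving out 1 library; it stays on 1 side of 0 for the matrix (2.39 to 3.46) and tuft cell (-2.69 to -1.70) lists and crosses 0 for the B and plasma cell list.

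Kuiyangling was also compared directly with the DSS model and with mesalazine. No gene of 13381 was called between Kuiyangling and the DSS model by edgeR's quasi-likelihood test (476 at an unadjusted p under 0.05, smallest adjusted p 0.820), and DESeq2 called 13. The 32 genes had been chosen by their distance from control in these same Kuiyangling libraries. Their differences from the DSS model ran from -2.87, for Cxcl2, to 1.95, for Dbp, and the libraries of the groups overlapped for 11. Against the same controls, 33 genes (0.247%) were called in the DSS model, 26 higher (0.194%) and 7 lower (0.0523%). With mesalazine 90 genes (0.673%) were called, 58 higher (0.433%) and 32 lower (0.239%). Between Kuiyangling and mesalazine no gene was called (254 at an unadjusted p under 0.05), and the libraries overlapped for 19 of the 32 genes, with differences from -1.35 to 1.59. The share of overlapping genes over all tested genes was not computed for these comparisons, so the overlap counts have no background. With 2 animals per group, a p that misses the threshold does not show that the groups were alike.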

How the data were processed

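The authors sequenced polyadenylated RNA of colonic mucosa with a stranded TruSeq mRNA kit after mirVana extraction, with RNA kept at integrity numbers from 7 up, per the labels' protocols. Per the submitters' processing notes Trimmomatic and HISAT2 were used, and their versions are not stated. Build, annotation, counting tool and strandedness of counting are not given in the sources used here. Reads of overlapping or antisense genes therefore cannot be told apart. The deposited counts are whole reads per gene. The FPKM values, deposited by the authors, are these counts scaled by gene length and library total, and served for gene lengths and 1 alternative.

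Genes that passed filterByExpr by group (13381 of 17353) were scaled by TMM and fitted in edgeR 4.0.16 (R 4.3.3), in 1 quasi-likelihood fit that took all 8 libraries and 1 mean for each group, which shares the spread across the 4 groups of 2. A call needed an adjusted p (Benjamini-Hochberg) under 0.05 and no minimum fold. SE are those of the fit, and 95% intervals of single genes are not adjusted for the number of genes. CPM use TMM-adjusted library sizes. The common biological coefficient of variation was 0.287. With 0 control reads a fold is a bound against 3 counts over the group. With 1 to 3 it is a count ratio with an exact binomial interval. Replicates are separate animals, per the series description.

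Named genes were the 12 called genes per direction with the largest change, at a mean of at least 5 CPM, without overlap between the groups and with an established symbol, filled from the smallest p where fewer were called, then up to 2 called members per list (otherwise the member with the smallest p), then a panel of 28 genes. The text names the called genes except 1, which is not reported here; further list members, such as Col3a1 and Arntl, were chosen after their values were seen, and some genes the rule names are left out. The members, 37 gene lists and tests were chosen with earlier results of these data known. Lists are described by counts and medians, without a test. Mpo was not analysed here. Promoters came from RefSeq (GRCm38.p6).

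On simulated counts for Kuiyangling against control (13179 genes), 12%, 76%, 92% and 98% of 50 genes each were recovered at 2-, 4-, 8- and 16-fold, with 7 false calls; with 200 genes altered at once the threshold is easier to pass than with few. Alternatives were other scalings, DESeq2 1.42.0, limma 3.58.1 on log2(FPKM + 0.1), no filter, the 4 compared libraries only, a replicate block, length offsets, and leaving out each library.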

Additional observations from a re-analysis of the deposited data

How the results depend on the processing

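All 32 called genes kept their direction in the 16 alternatives and in 2 chosen after seeing the data. Their lack of overlap between the groups made this likely beforehand. How many were called varied. Of the 32, edgeR called 32 of 33 with DESeq2's size factors and 32 of 34 with upper quartile scaling. DESeq2's own test called 341 (205 higher, 136 lower), the fit with no filter on low counts 451 (240 higher, 211 lower), and both held all 32. The fit of the 4 compared libraries alone called 19 (17 higher, 2 lower), of which 11 were among the 32. Limma on log2 FPKM called 44, of which 26 were, and length offsets 37, of which 28 were. Leaving out each library in turn gave 1 to 148. Leaving out control 2 and mesalazine 1 together, chosen after seeing the data, gave 71 (52 higher, 19 lower), of which 27 were among the 32. The cause of these shifts was not tested.

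The replicate block called 65 genes (50 higher, 15 lower), all 32 among them. The labels tie no animals across groups. Deviations of same-numbered libraries correlated at -0.112 for control and Kuiyangling, and from -0.311 to 0.162 over all pairs of groups. Whether same-numbered libraries shared a batch was not tested. A crossed pairing, chosen after seeing the data, called 23.

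Between Kuiyangling and the DSS model the count of 0 became 13 with DESeq2, 11 with no filter, 21 with the 4 libraries of that comparison alone and 24 without control 2 and mesalazine 1 together, and stayed at 0 with the replicate block and on leaving out any single library. With 2 animals a group, changes under 4-fold were mostly beyond reach: 12% of simulated 2-fold changes were recovered. Depth limits genes near 0 reads in controls, such as Cxcl2 and S100a8, whose folds span wide counting intervals.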

Other observations

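Lipid and bile acid genes of the absorptive epithelium varied between animals of a group. Apoa1, an apolipoprotein of lipid export, was at 1.44 and 0.123 CPM in the controls and at 82.0 and 1.87 CPM in Kuiyangling 1 and 2, and its mesalazine libraries were at 27.0 and 253 CPM. Apoa4 followed the same order, at 0.248 and 0.0617 CPM in the controls, 10.2 and 0.779 CPM with Kuiyangling and 1.27 and 50.0 CPM with mesalazine. Slc10a2, the bile acid uptake transporter, was at 76.3 and 15.6 CPM in the controls, 218 and 139 CPM with Kuiyangling and 54.9 and 53.7 CPM in the DSS model (log2 change against control 1.96, SE 0.64, adjusted p = 0.286). Npc1l1, the cholesterol uptake transporter, was at 0.991 and 0.370 CPM in the controls and 9.04 and 3.32 CPM with Kuiyangling (adjusted p = 0.198). None of these genes was called. Hoxd13, a gene of the most distal gut, did not pass the filter and was not tested. It was at 0.495 CPM in control 1 and 19.2 CPM in control 2, and had no read in either Kuiyangling library.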
